A study of Mus musculus with 2 samples.

Results

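Mpo, Elane, Prtn3 and Ctsg encode abundant proteins of the azurophil (primary) granule of neutrophils, and all 4 had far higher values in Fx-/- spleen cells without fucose than with it. Elane (neutrophil elastase), Prtn3 (proteinase 3) and Ctsg (cathepsin G) are serine proteases. Mpo (myeloperoxidase) is a haem enzyme and not a protease, so the group is described here as 3 protease genes and 1 peroxidase gene. The members were fixed by name, and each had a single probe set carrying only its symbol on the array. They are 4 of the 22180 genes measured. They were chosen by their log2 intensities in this same comparison, off fucose against on fucose, so their differences are a description with no test.

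RNA was hybridised to 2 Affymetrix whole-transcript arrays for mouse, 1 for each group. Both groups were spleen cells of Fx-/- mice, labelled as conventional type 1 dendritic cells (cDC1). In the on-fucose group the mice were fucose-treated, and in the off-fucose group they received no fucose treatment. Fx, now named Gfus, encodes an enzyme that makes GDP-fucose from mannose-derived sugar, so that mice without it rely on supplied fucose to build fucosylated glycans. Per the labels' protocols, cells with B220 and CD11b were removed with magnetic beads, and cells with CD11c were then selected. How many mice each array stands for, and their strain, age and sex, are not stated in the sources used here. No array of mice with an intact Fx gene was analysed, so both arrays carry the deletion and Gfus itself (log2 intensity 4.89 on fucose, with a difference of -0.39 off fucose) does not check the genotype.

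Azurophil granules form in promyelocytes, the early stage of granulocyte development in bone marrow. The genes of their contents are transcribed at that stage and are switched off as the cell matures, so that mature neutrophils carry the proteins but little of the messenger RNA. The proteases are stored in active form on a proteoglycan matrix and degrade microbes and extracellular matrix after release, while myeloperoxidase converts hydrogen peroxide and chloride into hypochlorous acid. Healthy adult mouse spleen also holds some blood formation, with granulocyte precursors in the red pulp.

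Over 41345 probe sets the median intensity was 6.99 on fucose and 7.04 off fucose (2.81 and 2.82 as log2), and values near these medians lie at the low end of the arrays. Differences are log2 values off fucose minus those on fucose. With 1 array per group no difference has a replicate check. In RNA from mixed cells, more cells of a type and more RNA per cell cannot be told apart. Genes of similar intensity to a member gave a yardstick, the robust SD of their differences, which was between 0.22 and 0.31 for the 4 genes and holds technical and biological variation alike. Centring on the T cell markers instead makes every difference 0.29 larger, so that negative differences smaller in size than 0.29 change sign under it.

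Elane cleaves elastin and bacterial proteins. Its intensity was 17.2 on fucose and 717 off fucose, or 4.11 and 9.48 on the log2 scale (probe set 17235011). The off-fucose array was 41.6-fold higher, a log2 difference of 5.38. Prtn3, the autoantigen of a form of human vasculitis, had an intensity of 7.48 on fucose and 270.4 off fucose, or 2.90 and 8.08 on the log2 scale (probe set 17235002). Its difference was 5.18, or 36.2-fold. The on-fucose value of Prtn3 lay only 0.10 above the array's median, so this fold is understated if the transcript was near background there.

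Ctsg, a protease with chymotrypsin-like cleavage, had an intensity of 13.6 on fucose and 563 off fucose, or 3.77 and 9.14 on the log2 scale (probe set 17306975). Its difference was 5.37, or 41.4-fold. Mpo had the highest on-fucose intensity of the members, at 31.6, and 1078 off fucose, or 4.98 and 10.07 on the log2 scale (probe set 17254877). Its difference was 5.09, or 34.1-fold. Probe sets respond differently, so the values of the 4 genes do not rank their transcripts. Every member was far lower on the on-fucose array than on the off-fucose array, the contrast by which the members were chosen. On fucose, Mpo lay above the upper quartile of all probe sets (18.1), and Elane, at 17.2, just under it.

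**Figure D1:**
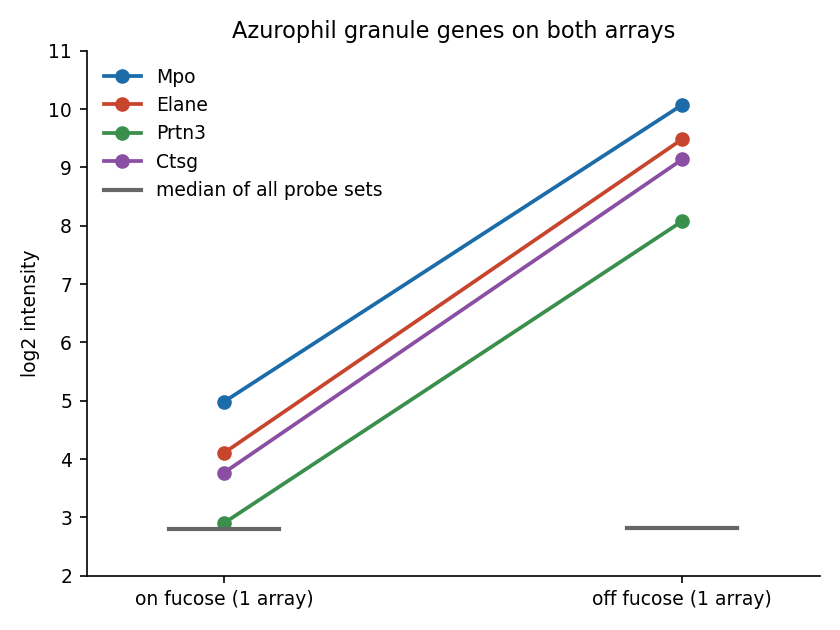
Log2 intensity (vertical axis) of Mpo, Elane, Prtn3 and Ctsg on the on-fucose and off-fucose arrays, 1 array per group, with lines joining the values of a gene and grey bars at the median of all probe sets. On-fucose values run from 2.90 to 4.98 and off-fucose values from 8.08 to 10.07, and the lines are nearly parallel.

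As deposited, the 4 differences were alike. They ran from 5.09 in Mpo to 5.38 in Elane, a range of 0.29, with a median of 5.27. The range is about as wide as the yardstick, so the order of the members is not resolved. Elane and Ctsg, which lie on different chromosomes, differed from each other by 0.01, and the chromosomal neighbours Elane and Prtn3 by 0.20. Among the 11090 genes past the expression filter (a mean log2 intensity of 2.88 or more, the median of all genes), Elane had rank 2 by difference, Ctsg rank 3, Prtn3 rank 4 and Mpo rank 5. All 4 members passed this filter, and each did so with its on-fucose value alone. Other genes could pass through their off-fucose value, as S100a8 did with 2.08 on fucose. Over the 11090 genes, 263 (2.37%) were at least 2-fold higher off fucose and 57 (0.514%) at least 2-fold lower, and 6 (0.0541%) were at least 32-fold higher. The members were chosen for these differences, so nothing is read from their share.

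**Figure D2:**
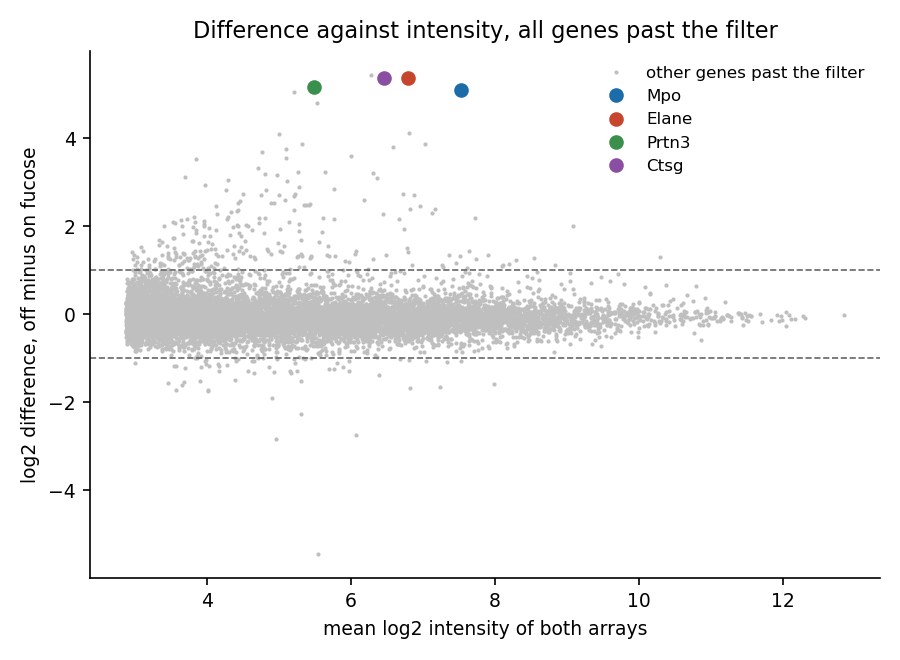
Log2 difference, off minus on fucose, against the mean log2 intensity of both arrays for the 11090 genes past the filter, with the 4 members coloured and dashed lines at 2-fold. The members lie between 5.09 and 5.38 at the top of the plot, at mean intensities from 5.49 to 7.53.

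The genes most like them were found by the gap between their difference and the members' median of 5.27, over the 2 arrays. Ly6a2, a gene of the Ly6 surface protein family, was nearest, going from 3.55 to 9.00 (5.45, a gap of 0.17). Ms4a3, a gene of granulocyte and monocyte progenitors, went from 2.68 to 7.73 (5.05, a gap of 0.22). Prg2, which encodes the major basic protein of eosinophil granules, went from 3.13 to 7.93 (4.80, a gap of 0.47). The gap then widened to 1.15 for Prss34, a basophil protease gene with a difference of 4.12, and 1.18 for the fibronectin gene Fn1 at 4.09. Aqp1, a water channel gene, had 3.87, Ifitm2, an antiviral membrane protein gene, also had 3.87, and Mcpt8, another basophil protease gene, had 3.79. With only 2 arrays, likeness is no more than a similar difference.

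The members come from 3 places in the genome, and the 250 bases before each start site are shown because all 4 genes were higher off fucose. The sequences are from RefSeq (assembly GRCm38.p6), which held all 4, and each is written on its gene's strand. Capitals mark AGGAAGT, which contains the GGAA core that ETS factors such as PU.1 recognise, CAACGG, a core of Myb sites, and CTATAA, which contains the TATAA of TATA boxes. These 3 words were chosen after the sequences had been read. The Mpo window is chr11:87793534-87793783 on the + strand, Elane chr10:79886062-79886311 on the + strand, Prtn3 chr10:79879417-79879666 on the + strand and Ctsg chr14:56102575-56102824 on the - strand.
Mpo: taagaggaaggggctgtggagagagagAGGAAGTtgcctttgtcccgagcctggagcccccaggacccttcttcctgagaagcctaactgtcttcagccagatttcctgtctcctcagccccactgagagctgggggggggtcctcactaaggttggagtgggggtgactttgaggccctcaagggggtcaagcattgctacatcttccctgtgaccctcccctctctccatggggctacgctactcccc
Elane: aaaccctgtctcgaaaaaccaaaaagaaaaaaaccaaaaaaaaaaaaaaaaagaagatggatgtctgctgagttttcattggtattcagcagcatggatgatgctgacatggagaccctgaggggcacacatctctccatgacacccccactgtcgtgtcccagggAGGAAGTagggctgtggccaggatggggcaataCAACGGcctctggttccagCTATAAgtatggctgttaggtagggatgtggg
Prtn3: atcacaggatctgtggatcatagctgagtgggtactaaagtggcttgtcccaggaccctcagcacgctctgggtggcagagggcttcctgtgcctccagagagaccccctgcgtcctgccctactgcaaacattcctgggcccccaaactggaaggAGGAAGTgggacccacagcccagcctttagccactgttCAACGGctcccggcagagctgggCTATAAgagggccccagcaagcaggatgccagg
Ctsg: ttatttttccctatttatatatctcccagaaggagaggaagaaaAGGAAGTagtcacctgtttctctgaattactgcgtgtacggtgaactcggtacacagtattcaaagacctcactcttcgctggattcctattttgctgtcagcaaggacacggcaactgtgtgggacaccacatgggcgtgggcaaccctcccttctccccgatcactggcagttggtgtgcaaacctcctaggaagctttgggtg

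Each of the 4 windows held AGGAAGT once, on the gene's own strand. Of 32851 RefSeq promoter windows of this length, 4.07% held it on that strand and 7.69% on either strand. It began 223 bases before the start of Mpo, 206 before Ctsg, 94 before Prtn3 and 84 before Elane. Elane and Prtn3, neighbours on chromosome 10, shared a further layout, with CAACGG beginning 51 and 56 bases and CTATAA 32 and 33 bases before the start. All 3 words on the gene's strand were found in the windows of 3 of 27025 genes (0.0111%), and the other gene was Elob, whose difference was 0.30. The words were chosen after reading the members' windows, so their rarity is a description with no test. Mpo and Ctsg held neither CAACGG nor CTATAA on either strand. No other form of a Myb core was searched, so a Myb word is not shown to be particular to Elane and Prtn3.

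The other words searched, on both strands, were commoner or absent. GGAA, which AGGAAGT contains, was in all 4 windows and in 93.4% of all windows. TATAA was in Elane, Prtn3 and, on the opposite strand, Ctsg, and in 22.8% of windows. AATC, the core of Gfi1 sites, was in Mpo and Ctsg and in 69.0% of windows. CCAAT was in Elane only among the members and in 33.8% of windows. The C/EBP words TTGCGCAA (0.164% of windows) and TTNNGNAAT (10.2%) were in none of the 4. A match describes letters and is not a binding site, and its absence from these windows says nothing of the factor.

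The members' chromosomal neighbours had mostly small differences. Of 30 distinct protein-coding genes within 5 genes of a member, 27 had a probe set of their own. Of these, 2 were at least 2-fold higher and none lower, with a median of 0.13. Over all 22180 genes measured, the share at least 2-fold higher was 1.2%, and the share at least 2-fold lower was 0.257%. Around Mpo on chromosome 11 lie the genes of related peroxidases. Lpo, lactoperoxidase, next to Mpo, went from 2.99 to 3.15 (0.16), and Epx, eosinophil peroxidase, from 2.37 to 3.28 (0.92), below the filter. Pxdn, a peroxidase gene elsewhere in the genome, had -0.03.

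Prtn3 and Elane are adjacent on chromosome 10, in a cluster that also holds Prss57 and Cfd. Prss57, a further neutrophil serine protease, went from 2.94 to 3.97 (1.03). Cfd, the adipsin gene next to Elane, had no probe set of its own. Genes with other functions in and around the cluster had small differences. Plppr3 had 0.26, Med16 0.16, Ptbp1 0.13, R3hdm4 0.11 and Palm -0.13. Kiss1r, below the filter, had -0.44, the lowest difference among all measured neighbours. Ctsg lies on chromosome 14 in a cluster of mast cell protease and granzyme genes. Mcpt8, next to Ctsg on one side, went from 4.68 to 8.47 (3.79). The next gene on the other side, Gzme, had no probe set of its own, and the remaining 8 measured neighbours ran from -0.26 (Gzmf) to 0.50 (Mcpt1), all below the filter.

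**Figure D3:**
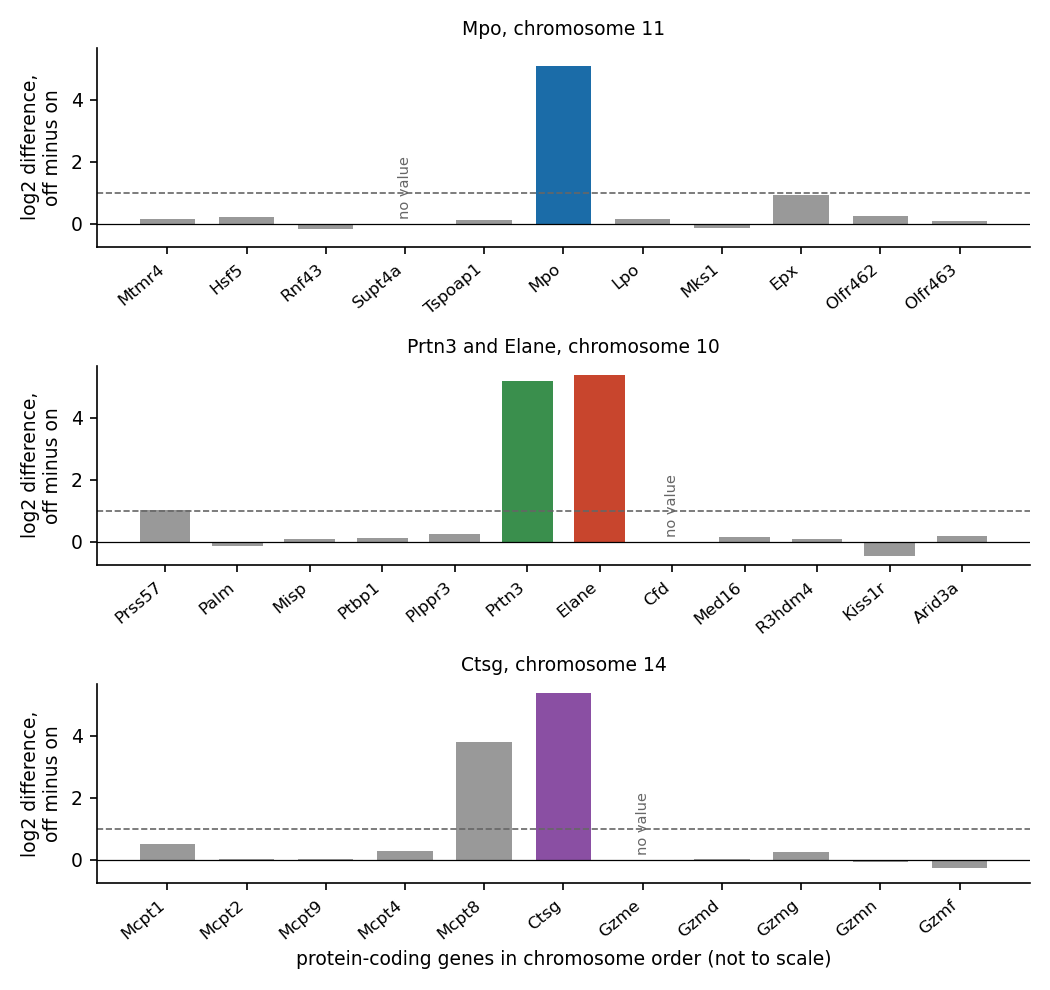
Log2 difference, off minus on fucose (vertical axis), of the members (coloured) and the protein-coding genes around them (grey) in chromosome order, with a dashed line at 2-fold. Mcpt8 at 3.79 and Prss57 at 1.03 are the measured neighbours above the line, and Epx lies just under it at 0.92.

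Other proteins of the azurophil granule were measured with 7 genes, of which 6 passed the filter and 2 were at least 2-fold higher off fucose. The median over all 7 was 0.55, against -0.0008 over all genes measured. Lyz2, the lysozyme of granulocytes and macrophages, went from 3.60 to 6.63 (3.03). Cd63, a granule and lysosome membrane protein gene, went from 6.19 to 7.16 (0.98), and Lyz1 had 0.55. Ctsc, which encodes the dipeptidyl peptidase that activates the 3 proteases, went from 7.57 to 7.74 (0.18). Srgn, the core protein of the proteoglycan that holds them in the granule, had 9.25 and 9.23 (-0.02). Bpi, a bactericidal protein gene, had 2.66 and 2.41, below the filter. The activating enzyme and the storage proteoglycan, whose genes are also expressed in lymphocytes, thus had similar values on both arrays.

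Lysosomal hydrolases are also found in azurophil granules. None of the 11 measured was 2-fold apart, and their median was 0.19. The largest differences were in Ctsd (-0.46), Gusb (0.46), Hexa (0.46), Man2b1 (0.31) and Ctsb (0.24). Fuca1, the lysosomal enzyme that removes fucose from glycans, had 7.40 and 7.48. Genes of granule protein processing and sorting, several of them mutated in inherited neutropenia, had a median of -0.26 over 9 genes, none 2-fold apart, which became 0.037 with differences centred on T cell genes. Jagn1 had -0.49, G6pc3 0.38, Ap3b1 -0.32, Hax1 -0.29 and Vps45 -0.28, of which Hax1 and Vps45 turned positive with that centring.

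Inhibitors of these proteases were measured with 12 genes, of which 3 passed the filter and 2 were at least 2-fold higher. The median over all 12 was 0.14, and over the 3 past the filter 1.46. Serpinb1a, a cytosolic inhibitor of elastase, proteinase 3 and cathepsin G, went from 4.04 to 5.98 (1.94). Slpi, a secreted inhibitor of elastase and cathepsin G, went from 3.55 to 5.01 (1.46). Serpinb6a had 0.36. The alpha-1-antitrypsin genes Serpina1a to Serpina1e, made mainly by liver, were all below the filter, with differences between -0.23 and 0.19.

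Myeloperoxidase depends on hydrogen peroxide from the phagocyte oxidase. Cybb, its catalytic subunit, went from 3.66 to 6.19 (2.54), while Cyba had -0.13, Ncf1 0.21, Ncf4 0.12 and the oxidase GTPase gene Rac2 -0.28, where Cyba and Rac2 turned positive with T cell centring. Cybb was the only gene at least 2-fold higher among the 6 measured. Padi4, an enzyme of neutrophil extracellular trap formation, had 2.53 and 2.58, below the filter.

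Regulators of granule genes had a median of 0.74 over all 13 measured. Of these, 4 were at least 2-fold higher, against 1.2% of all genes measured, and none lower. Irf8, a transcription factor of monocytes and cDC1, went from 4.18 to 6.68 (5.66-fold), whereas its other probe set had 0.21. Klf4, a monocyte factor, went from 2.81 to 4.79 (1.98). The GM-CSF receptor gene Csf2ra had 1.45 and the G-CSF receptor gene Csf3r, which granulocyte precursors carry, 1.33. Spi1, which encodes PU.1, went from 2.87 to 3.69 (0.81), and Cebpa, a factor of the granulocyte and monocyte progenitor, from 3.36 to 4.13 (0.77). Cebpe, a factor of the later granule genes, had 0.51. Gfi1, a repressor required for neutrophil development, had 3.13 and 2.61, below the filter. Spi1, Cebpa, Cebpe, Myb (0.58) and Runx1 (0.13) lay within 2-fold, but with T cell centring Spi1 (1.11) and Cebpa (1.06) passed it.

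**Figure D4:**
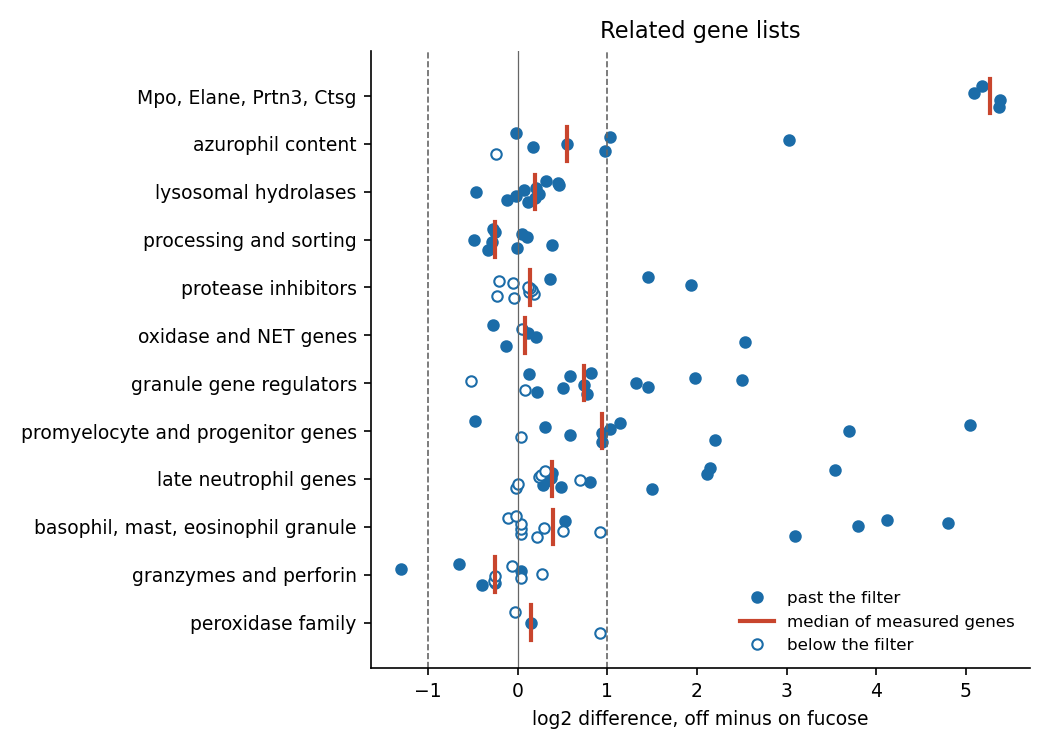
Log2 difference, off minus on fucose (horizontal axis), of each measured gene in the members' group and in 11 related gene lists (vertical axis), filled where past the filter and open where below it, with the median of all measured genes in red and dashed lines at 2-fold. The members' median is 5.27, while the medians of the other lists over all measured genes run from -0.26 to 0.94, and the highest over genes past the filter alone is 3.79, in the basophil, mast cell and eosinophil list.

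Genes of promyelocytes and earlier progenitors had a median of 0.94 over all 11 measured, with 5 at least 2-fold higher and none lower. Besides Ms4a3, the haptoglobin gene Hp went from 2.92 to 6.62 (3.70), the progenitor surface marker gene Cd34 from 2.71 to 4.92 (2.20), Plac8 from 7.62 to 8.77 (1.15) and the stem cell factor receptor gene Kit from 5.72 to 6.75 (1.03). Cd34 was also named on a probe set shared with another gene, which had 0.18. Fcnb, a ficolin gene of granulocyte precursors, had 0.59, and Mgst1 had 0.31. Sox4 was the only gene of the list with a negative difference, -0.47, and its other probe set had -0.33. Clec11a, below the filter, had 0.04.

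Genes of later neutrophil stages, only some of which encode secondary or tertiary granule proteins, had a median of 0.38 over all 16 measured, with 4 at least 2-fold higher. S100a8 went from 2.08 to 5.62 (3.54), S100a9 from 2.57 to 4.72 (2.15), Ngp from 2.90 to 5.01 (2.11) and the cathelicidin gene Camp from 2.79 to 4.29. Lcn2 had 0.81. Ltf, the lactoferrin gene of secondary granules, had 3.10 and 3.42, Cxcr2, the chemokine receptor of mature neutrophils, 3.57 and 3.86, and Ly6g, their surface marker, 2.23 and 2.93. Mmp8, Mmp9, Retnlg, Cd177 and Itgb2l were also below the filter, with differences from -0.02 to 0.31. Itgam, which encodes the CD11b used to deplete cells and was chosen outside the lists, had 3.07 and 3.66 (0.59). Whether any of these lists differed from the members beyond chance was not tested.

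Granule genes of other leukocytes went both ways. In the list of basophil, mast cell and eosinophil granule genes 4 of the 14 measured were at least 2-fold higher. The median was 0.40 over all 14 and 3.79 over the 5 past the filter. Each of these 5 also had an on-fucose value above the filter limit, with Prg3 the lowest at 2.94. Prg2, Prss34, Mcpt8 and the carboxypeptidase gene Cpa3 (4.81 and 7.90, a difference of 3.09) were high off fucose. The mast cell tryptase and chymase genes Tpsab1, Tpsb2, Cma1, Mcpt1, Mcpt2, Mcpt4 and Mcpt9 were all below the filter. Granzymes and perforin, of cytotoxic lymphocytes, had a median of -0.25 over all 10 genes measured, which became 0.040 with T cell centring, and -0.40 over the 5 past the filter, which became -0.11. Among them Gzmm, at 5.80 on fucose, had -1.30 and the perforin gene Prf1 from 8.09 to 7.44 (-0.65), opposite in sign to the 4 azurophil genes, and both stayed negative with T cell centring. Gzma had -0.40 and Gzmb -0.25, the latter turning positive with that centring.

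Genes of other cell types differed between the arrays beside the members, and their part in the members' differences was not tested. These marker lists were also chosen with earlier results known, and 1.2% of all genes measured were at least 2-fold higher. Summed intensity over the 4 members was 69.9 on fucose and 2628 off fucose. Over the 8 erythroid markers it was 86.2 and 520, with 6 at least 2-fold higher and Slc4a1, the red cell anion exchanger, from 3.22 to 6.98. Monocyte markers had 1437 and 2157 over 7 genes, 4 of them 2-fold higher, with a median difference of 1.42 and F13a1 at 3.06. Most of that sum came from Ly6c2 (1388 and 1895), and without it the sums were 48.9 and 262. Cell cycle genes had 223 and 801 over 11 genes, 10 of them 2-fold higher, with Mki67 from 5.57 to 7.74. T cell markers had 9861 and 8049 over 8 genes, all with negative differences within 2-fold before any centring, and B cell markers 82.8 and 73.3 over 7 genes.

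The labelled cell type was checked on 11 measured cDC1 markers, whose summed intensity was 565 on fucose and 957 off fucose, with 4 at least 2-fold higher. Without Cd8a (332 and 297), which T cells also express, the sums were 234 and 660, of which Naaa alone had 62.5 and 328. Of the 11 differences 9 were positive and 2 negative, those of Itgae (-0.38) and Cd8a (-0.16). Zbtb46 had 0.14, and Clec9a had 0.43 on a probe set shared with another gene. Irf8, Naaa, Tlr3 and Wdfy4 were those 4, while Xcr1, the defining chemokine receptor, had only 2.90 and 3.43, and Itgax, which encodes CD11c, 3.83 and 3.86. T cell genes such as Cd3e (10.97 and 10.55) had high values on both arrays. Sex-linked genes also separated the arrays. Xist went from 8.26 to 2.82, Uty from 2.14 to 5.26, Kdm5d to 5.44 (a difference of 2.94) and Eif2s3y from 2.34 to 3.60, and Ddx3y had no probe set of its own. The on-fucose array thus had a female pattern of these genes and the off-fucose array a male one. Fucose supply, this difference and any difference in cell make-up between the 2 arrays cannot be told apart in this design.

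Adding an intensity of 16 to every value before taking logs, which weighs down dim values, lowered the differences to 4.52 in Mpo, 4.46 in Elane, 4.29 in Ctsg and 3.61 in Prtn3. Mpo then had the largest fold of the 4, at 23.0, and Prtn3 the smallest, at 12.2. The differences, from 3.61 to 4.52, were then less alike than as deposited, where their range was 0.29. The order of the members and the likeness of their differences thus depend on how dim on-fucose values are treated. The direction stayed the same. The members were chosen for it, and neither the offset nor the centring used could reverse differences this large, so this is no added support.

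**Figure D5:**
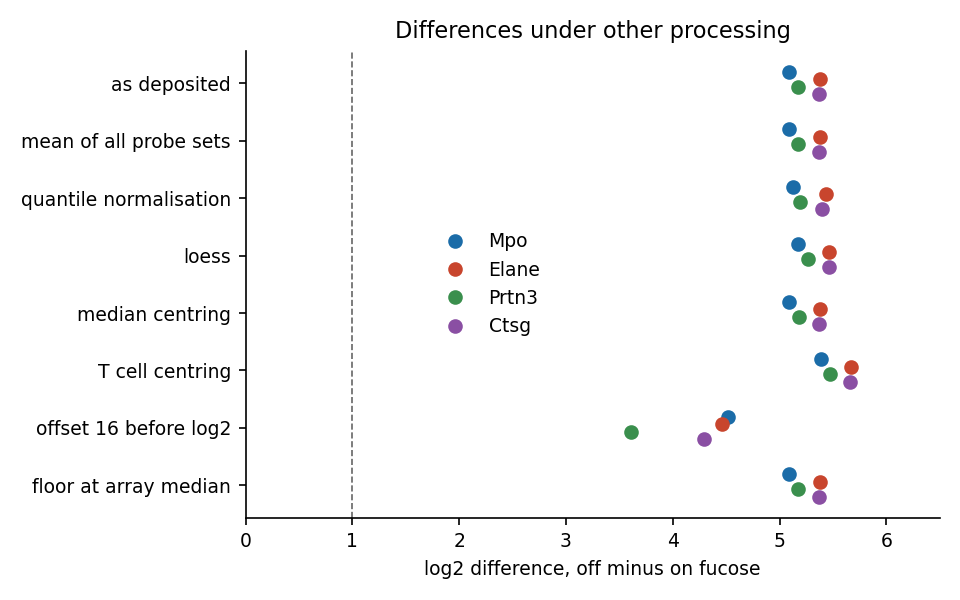
Log2 difference, off minus on fucose (horizontal axis), of the 4 members under the deposited values and 7 other settings (vertical axis), with a dashed line at 2-fold. Every point lies above 3.6, and the offset of 16 gives the lowest values, from 3.61 in Prtn3 to 4.52 in Mpo.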

How the data were processed

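The authors deposited an intensity on a linear scale for each probe set of each array. RMA is named for this step in the submitters' processing notes, and its version and settings and a genome build are not given in the sources used here. Such normalisation makes the distributions of arrays alike, so a shift of all genes would not be visible. Log2 of each intensity was taken. Only probe sets with 1 gene symbol in the platform annotation were used (23521 of 41345; 1814 had several symbols and 16010 none). The probe set with the highest mean stood for a gene. The members, gene lists and alternatives were chosen with earlier results of these data known. Named genes were the members, the 5 largest differences of a list, neighbours, the 8 genes most alike, Gfus and sex-linked genes. Others, such as Itgam, Fuca1 and Cebpe, were named after their values were seen. No test was possible with 1 array per group. The number of arrays limits the precision. Python 3.11.15 with pandas 2.3.3 and statsmodels 0.14.6 was used, and the counting of 2-fold differences was tested on simulated data. Alternatives were the mean of probe sets, quantile normalisation, loess (span 0.3), centring on all genes or on T cell genes, an offset of 16, a floor at the array median, other thresholds and no filter. Protein sequences of the members were not used here.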

Additional observations from a re-analysis of the deposited data

How the results depend on the processing

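No paired analysis was possible because there was a single array on each side, which also means that none could be left out. The 4 members kept their direction and stayed more than 8-fold higher under the alternatives run. They were chosen for large differences in this direction, so that is no independent check. Centring on T cell genes, which shifted the median difference past the filter from -0.05 to 0.25, gave 5.38 for Mpo, 5.67 for Elane and 5.66 for Ctsg. The offset of 16 gave 4.52, 4.46 and 4.29 for these and 3.61 for Prtn3. Genes at least 2-fold higher and lower numbered 263 and 57 as deposited, 479 and 23 with T cell centring, and 116 and 11 with the offset. At 1.5-fold they numbered 640 and 473, and at 3-fold 118 and 12. Of 136 medians over list genes past the filter, recomputed for 17 lists, 107 moved by less than the robust SD of all differences (0.29), 27 moved by more, and 2 changed sign, both with T cell centring: processing and sorting (0.037) and B cell markers (0.080). T cell centring adds 0.2932 to every difference, just above the limit of 0.2863, and centring on all genes adds almost nothing. The outcome of both was thus fixed in advance, and the tally is no measure of robustness for them. The report prints most list medians over all measured genes. With that choice and T cell centring together, an alternative chosen after seeing the data, granzymes and perforin (0.040) changed sign as well. Low signal over background limits the folds of dim genes, Prtn3 on fucose among them.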

Other observations

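AGGAAGT, the word that all 4 members' promoter windows share, was also counted in the promoters of other genes. It stood on the gene's strand in a promoter of 10 of the 198 genes with a promoter entry at least 2-fold higher (5.05%), of 3 of the 41 at least 2-fold lower (7.32%), and of 427 of the 8753 past the filter (4.88%), with the members left out of each. These shares are a description with no test.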
